A study of Mus musculus with 15 samples.

Results

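The keratin-associated protein (Krtap) genes of mouse skin were followed library by library. Members were all genes of the deposited table whose symbol, after removal of stray apostrophes, begins with Krtap, which gave 53 of 18929 genes in 26 numbered subfamilies. RNA from dorsal skin was sequenced in 15 samples, 3 in each of 5 groups. In 2 acellular groups, full-thickness excisional wounds of 10 mm or 15 mm along the dorsal midline were filled with Matrigel beads without cells. In 2 HDB groups, wounds of the same sizes received Matrigel beads laden with mesenchymal stem cells (MSCs) at high density, set sparsely among acellular beads. The fifth group was normal skin under normal growth, with no wound and no beads. All animals were male wild-type balb/c mice of 4 to 6 weeks at operation. The MSCs came from human umbilical cord, so the transplanted cells were of another species than the genes counted here, and all 4 wound groups carried Matrigel. As to when tissue was taken, the methods state 4 weeks after implantation in one place and day 21 after wounding in another. Nothing in the labels says whether the 3 samples of a group came from separate mice, so the p-values below measure only the spread between these samples.

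Hair shafts are built from hair keratins, which form intermediate filaments, and from keratin-associated proteins, which fill the space between the filaments and cross-link them through disulfide bonds. Krtap genes are small, mostly without introns, and lie in clusters. They are switched on late in the life of a hair cell, in the cortex and cuticle above the matrix of a growing (anagen) follicle, after the hair keratins. Follicles in the resting phase make little or no new shaft. In bulk skin, fewer shaft-forming cells and less RNA per cell cannot be told apart.

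By tradition the family is sorted by what its proteins are rich in, namely cysteine (high-sulfur, and ultra-high-sulfur at the top of the range) or glycine and tyrosine. Codons of the annotated coding sequences were counted for this purpose. The ultra-high-sulfur class held 20 members with over 30% cysteine codons (30.3% to 42.8%). The high-glycine-tyrosine class held 14 members whose glycine and tyrosine codons made up 47.5% to 69.2%, with 0% to 16.7% cysteine. The remaining 19 members were called high-sulfur, with 4% to 29.8% cysteine codons. This last class is broad, since it also took in Krtap7-1 (29.9% glycine plus tyrosine), which is often placed with the glycine-tyrosine proteins. Members were short, from 58 to 502 codons, and 48 of 53 had a single exon; Krtap14, Krtap15, Krtap5-1, Krtap5-2 and Krtap5-3 did not.

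**Figure D1:**
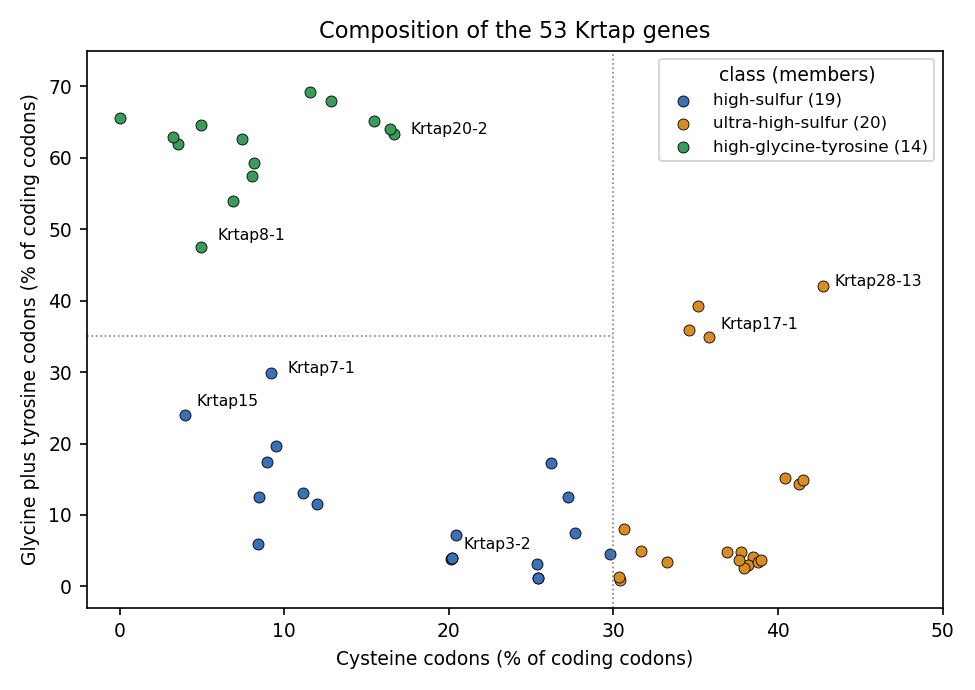
Each point is 1 Krtap gene, placed by its share of cysteine codons (x axis, %) and of glycine plus tyrosine codons (y axis, %), with colour for the class and dotted lines at the class limits of 30% and 35%. Krtap8-1 and Krtap20-2 sit among the 14 green glycine-tyrosine genes, and Krtap28-13 and Krtap17-1 are cysteine-rich genes that also carry many glycine and tyrosine codons.

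The first 30 codons of the gene with the highest level per kb in each class show what the classes mean. They are given 5′ to 3′ on the coding strand from the reference annotation (GRCm38, a C57BL/6J genome, while the mice were balb/c). Capitals mark glycine and tyrosine codons in Krtap8-1 (chr16:89487818-89487907, minus strand) and cysteine codons in Krtap7-1 (chr16:89508173-89508262, minus strand) and Krtap17-1 (chr11:99993850-99993939, minus strand).
Krtap8-1: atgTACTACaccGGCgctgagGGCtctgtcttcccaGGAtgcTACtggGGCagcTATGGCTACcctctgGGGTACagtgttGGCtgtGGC
Krtap7-1: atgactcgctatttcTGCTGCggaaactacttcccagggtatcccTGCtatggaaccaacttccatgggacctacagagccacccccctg
Krtap17-1: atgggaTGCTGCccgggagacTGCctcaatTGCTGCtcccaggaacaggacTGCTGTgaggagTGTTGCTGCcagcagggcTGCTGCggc
In these stretches 14 of 30 codons of Krtap8-1, 3 of 30 of Krtap7-1 and 12 of 30 of Krtap17-1 are in capitals.

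The members lay on 5 chromosomes. Chromosome 16 held 22 (between 88610709 and 89571183), among them every glycine-tyrosine gene. Chromosome 11 held another 22 (between 99550132 and 99993994), with the Krtap1, Krtap2, Krtap3, Krtap4, Krtap9, Krtap17 and Krtap31 subfamilies and Krtap16-1. Chromosome 7 held 5 (the Krtap5 genes), chromosome 10 held 3 and chromosome 1 held Krtap28-13 (coordinates from RefSeq, GRCm38.p6). In the GENCODE annotation the 3 members on chromosome 10 (Krtap10-4, Krtap10-10 and Krtap12-1) lie inside the longer gene Tspear, and both Krtap10 genes also inside the gene model Gm2696. The annotated span of Krtap15 takes in Krtap14, and the noncoding gene Gm49688 overlaps Krtap24-1. Reads in such overlaps can be assigned to either gene.

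Promoter windows from 250 bases before to 50 bases after the start were at hand for 48 members (RefSeq, GRCm38.p6). The letters TATAAA, the core of the TATA box, occurred on either strand in 39 of 48 (81.25%), against 13.6% of all 32851 windows. On the gene's own strand and between 40 and 21 bases before the start they stood in 29 of 48 (60.4%), against 1.87% of all windows. TTTATNG, a form of the letters bound by the hair factor Hoxc13, occurred in 6 of 48 (12.5% against 10.9%), and CTTTGA, as bound by Lef1 and its relatives, in 14 of 48 (29.2% against 16%). Both strands were searched, and CTATAAA holds TATAAA as well as the reverse complement of TTTATNG. Near copies share their promoters too, so the windows are not independent, and a match is a description only. The 120 bases before the start are shown for 5 genes whose levels differ below, 5′ to 3′ on each gene's strand, with TATAAA in capitals. They are Krtap8-1 (chr16:89487953-89488072, minus), Krtap17-1 (chr11:99993995-99994114, minus), Krtap3-2 (chr11:99556854-99556973, minus), Krtap20-2 (chr16:89205741-89205860, plus) and Krtap15 (chr16:88828889-88829008, plus).
Krtap8-1: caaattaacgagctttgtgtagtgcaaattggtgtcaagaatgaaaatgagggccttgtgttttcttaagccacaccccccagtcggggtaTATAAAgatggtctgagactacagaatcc
Krtap17-1: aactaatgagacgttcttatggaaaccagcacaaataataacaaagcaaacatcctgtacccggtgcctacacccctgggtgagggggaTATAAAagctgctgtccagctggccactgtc
Krtap3-2: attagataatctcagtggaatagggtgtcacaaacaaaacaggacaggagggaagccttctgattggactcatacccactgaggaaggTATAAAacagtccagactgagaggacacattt
Krtap20-2: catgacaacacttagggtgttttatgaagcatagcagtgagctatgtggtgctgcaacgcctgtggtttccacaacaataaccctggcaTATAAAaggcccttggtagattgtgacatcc
Krtap15: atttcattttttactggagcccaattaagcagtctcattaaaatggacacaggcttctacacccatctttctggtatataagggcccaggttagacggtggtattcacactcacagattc

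Library totals lay between 15840551 and 18404188 estimated counts, and 3 counts, taken here as the least that can be read as a level, came to 0.16 to 0.21 CPM (counts scaled to a common library size, with TMM factors). These limits cover counting error only. Epidermal genes fixed as a check of the tissue (9, from Krt5 to Krtdap) summed to 6278 to 20445 CPM in every library. The skeletal muscle list (8 genes) ran from 555 to 52499 CPM, with all 3 normal libraries at 43118 or above. Near copies share reads, so their split is uncertain. Of 53 members, 18 had counts with decimals in some library, and 13 were at least 90% identical in coding sequence to another member. The coding sequences of Krtap3-2 and Krtap3-3 were 100% identical.

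Summed over all members, Krtap RNA peaked in single acellular libraries, while other acellular libraries stood below every HDB 15 mm library. In the acellular 15 mm group the sum was 7953, 769 and 8.5 CPM in replicates 1, 2 and 3. The HDB 15 mm libraries held 325, 57.4 and 46.4 CPM. At 10 mm the acellular libraries held 464, 2.81 and 27.6 CPM and the HDB libraries 4.74, 2.48 and 4.39 CPM, while normal skin held 4.22, 3.08 and 3.69 CPM. In acellular 15 mm replicate 1 these 53 genes made up 0.762% of all counts. The HDB and acellular ranges overlapped at both sizes, and the 3 HDB 15 mm sums all stood above the 3 HDB 10 mm sums and above normal skin. Acellular 10 mm replicate 2 and HDB 10 mm replicate 2 lay below all 3 normal libraries. Acellular 10 mm replicates 2 and 3 and acellular 15 mm replicate 3 lay below all 3 HDB 15 mm libraries. Most of the normal sum came from Krtap3-2. Without it HDB 10 mm held 4.2, 1.72 and 2.55 CPM and acellular 10 mm replicate 2 held 1.57 CPM. Each of these values was above the 0.773, 0.335 and 0.402 CPM of normal skin.

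Other hair genes moved with these sums. The hair shaft keratins, the filament partners of the Krtap proteins (15 of a list of 16 were in the table), summed to 14557, 1387 and 17.8 CPM in the acellular 15 mm group, 573, 77.8 and 74.3 CPM in HDB 15 mm and 3.82 to 6.32 CPM in normal skin. At 10 mm they summed to 584, 8.87 and 190 CPM in the acellular group and to 8.66 to 18.3 CPM in the HDB group. Genes of the inner root sheath, the sleeve around the growing shaft (8 of 9 in the table), ran in the same order in the acellular groups, with 13377, 1004 and 25.5 CPM at 15 mm and 1360, 21.2 and 399 CPM at 10 mm. The Krtap sum was 0.546, 0.554 and 0.476 of the hair shaft keratin sum in the acellular 15 mm libraries and 0.568, 0.737 and 0.625 in HDB 15 mm. In acellular 10 mm it was 0.794 in replicate 1 but 0.145 in replicate 3, so that replicate 3 held hair keratin RNA with comparatively little Krtap RNA. The 8 proliferation genes were highest in acellular 15 mm replicate 1 (1590 CPM) and in acellular 10 mm replicate 3 (683 CPM), and the epidermal list was lowest in acellular 15 mm replicate 1 (6278 CPM). The sebaceous gland list (7 genes) was also lowest in that library (4598 CPM), and the macrophage list (6 genes) stood at 105.6, 311 and 602 CPM in acellular 15 mm and at 158, 946 and 150 CPM in acellular 10 mm. The adipocyte list (6 genes) stood at 1490, 2004 and 4381 CPM in acellular 15 mm, at 858, 946 and 445 CPM in acellular 10 mm and at 2950 to 6799 CPM in normal skin. Their part in the Krtap levels was not tested.

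**Figure D2:**
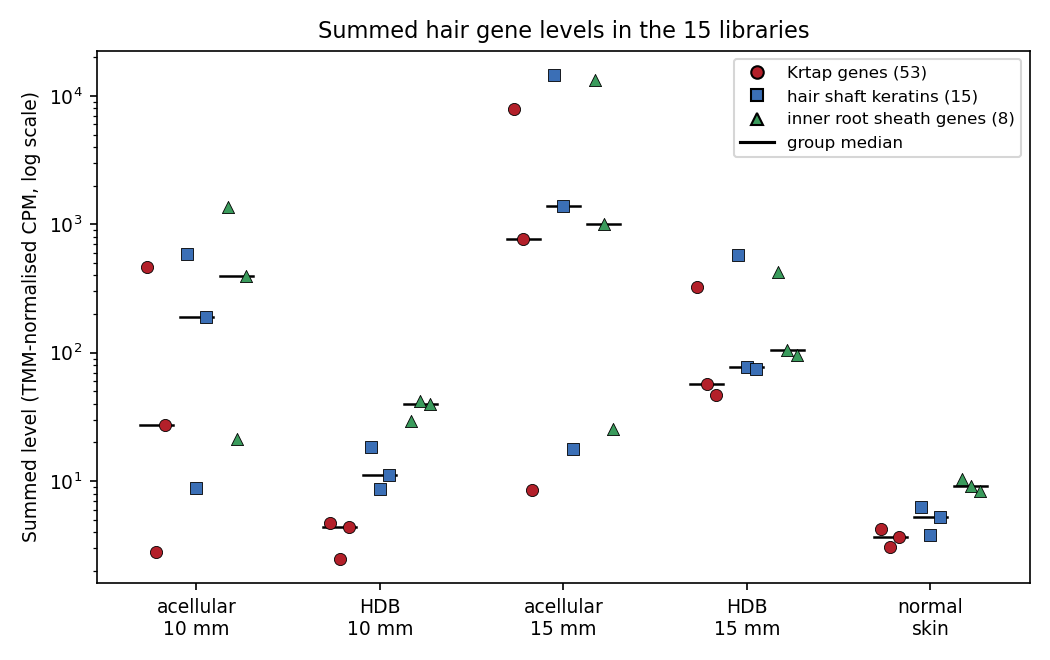
Points are the 15 libraries in their 5 groups, with the summed TMM-normalised CPM on a log axis for the 53 Krtap genes (circles), 15 hair shaft keratins (squares) and 8 inner root sheath genes (triangles), and a black line at each group's median. Krtap sums span 8.5 to 7953 CPM among the 3 acellular 15 mm libraries and 46.4 to 325 CPM among the HDB 15 mm libraries.

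Per kb of gene span, Krtap8-1 and Krtap7-1, neighbours on chromosome 16, were the most abundant members, with means over the 15 libraries of 204 and 181 CPM per kb. Krtap15, Krtap11-1, Krtap16-3, Krtap22-2 and Krtap14, all on chromosome 16, came next (92.5, 60.6, 56.6, 56.2 and 49.0 CPM per kb). The first gene of chromosome 11 in this order was Krtap1-5 (23.2), and the first ultra-high-sulfur gene was Krtap17-1, at place 20 (6.82). All 5 members of the Krtap5 subfamily, known from the hair cuticle, stood at place 44 or lower. Because 1 library held most of the RNA, these means mainly describe acellular 15 mm replicate 1.

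Krtap8-1, a glycine-tyrosine protein of the cortex, stood at 84.0, 0 and 6.20 CPM in the acellular 10 mm libraries and at 0.947, 0.0538 and 0.611 CPM in HDB 10 mm. At 15 mm it stood at 1448, 150 and 1.43 CPM in the acellular group and at 65.8, 12.5 and 6.10 CPM in HDB. It had no count in normal skin, where 3 counts would come to 0.204 CPM. Its HDB 15 mm values lay inside the acellular range, and 1 acellular 10 mm library had no count, below all 3 HDB 10 mm libraries.

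Krtap7-1 followed the same order. It was at 103, 0.112 and 5.14 CPM in acellular 10 mm and at 0.592, 0.161 and 0.222 CPM in HDB 10 mm. It was at 1354, 150 and 0.850 CPM in acellular 15 mm and at 56.0, 8.67 and 5.82 CPM in HDB 15 mm, again with no count in normal skin. As for Krtap8-1, the HDB and acellular libraries overlapped at both sizes.

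Krtap17-1, the leading ultra-high-sulfur gene, kept a trace in nearly every library. Its counts were 175, 9 and 22 in acellular 10 mm, 6, 11 and 2 in HDB 10 mm, 850, 148 and 7 in acellular 15 mm and 85, 26 and 24 in HDB 15 mm. Normal skin gave 1, 2 and 0 counts. Every wound library except HDB 10 mm replicate 3 therefore had more counts than any normal library.

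Among the other high-sulfur genes the spread between libraries was just as wide. Krtap11-1, found in the hair cortex, reached 806 CPM in acellular 15 mm replicate 1, 43.1 CPM in replicate 2 and 0.478 CPM in replicate 3, against 17.5, 3.09 and 1.47 CPM in HDB 15 mm. Krtap15 and Krtap14, which lie side by side on chromosome 16, reached 1106 and 589 CPM in acellular 15 mm replicate 1. In replicate 2 they fell to 7.47 and 12.1 CPM, and in HDB 15 mm they held 0.169 to 2.17 CPM and 0.909 to 3.31 CPM. Krtap1-5 held 267, 51.3 and 0.319 CPM in acellular 15 mm and 19.9, 4.30 and 2.2 CPM in HDB 15 mm. For both Krtap14 and Krtap1-5, acellular replicate 3 lay below all 3 HDB libraries and replicates 1 and 2 above them. The other leaders of high-sulfur subfamilies (Krtap13-1, Krtap3-3, Krtap9-3, Krtap24-1, Krtap26-1, Krtap2-4, Krtap12-1, Krtap27-1 and Krtap31-1) peaked in the same library, from 6.35 CPM (Krtap31-1) to 223 CPM (Krtap13-1).

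The glycine-tyrosine genes on chromosome 16 were led, after Krtap8-1, by Krtap16-3 and Krtap22-2. Krtap16-3 held 428, 29.9 and 0.159 CPM in acellular 15 mm and 10.5, 0.970 and 1.24 CPM in HDB 15 mm. Krtap22-2 held 219, 47.4 and 0.265 CPM in acellular 15 mm and 26.6, 3.58 and 3.90 CPM in HDB 15 mm, with a single count in 1 normal library. In the Krtap6 subfamily, which is rich in both glycine and tyrosine, Krtap6-5 held 60.4, 30.5 and 0.584 CPM in acellular 15 mm and 13.8, 1.70 and 2.48 CPM in HDB 15 mm. Krtap6-2 held 19.7, 16.2 and 0.212 CPM against 8.0, 1.64 and 1.75 CPM. Krtap6-2 and Krtap6-5 thus differed much less between acellular replicates 1 and 2 than Krtap16-3 did. Krtap19-5, the leader of the Krtap19 subfamily by mean CPM, held 107, 9.86 and 0 CPM against 5.88, 0.909 and 1.58 CPM, and Krtap21-1 held 29.2, 11 and 0 CPM against 4.68, 0.970 and 2.09 CPM.

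Ultra-high-sulfur genes were lower. Krtap4-1, the leader of the Krtap4 subfamily, held 29.6, 11.1 and 0 CPM in acellular 15 mm and 3.77, 0.606 and 0.508 CPM in HDB 15 mm. Krtap28-13 peaked at 16.9 CPM, Krtap10-10 at 15.2 CPM and Krtap5-5 at 7.48 CPM, each in acellular 15 mm replicate 1. Krtap5-3 had counts in that library only.

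Over the whole family, 52 of 53 members were highest in acellular 15 mm replicate 1, the exception being Krtap20-2. Within acellular 15 mm, replicates 1 and 2 were both above every HDB 15 mm library for 49 members, and replicate 3 was below every HDB 15 mm library for 40. Replicate 1 was also the highest library of HDB 15 mm for 48 members (4 others had no count in that group) and of acellular 10 mm for 47. More than 3 counts were seen for 52 members in acellular 15 mm replicate 1, for 47 in replicate 2 and for 13 in replicate 3, for 29 to 39 in the HDB 15 mm libraries, for 3 to 6 in the HDB 10 mm libraries and for 1 or 2 in normal skin.

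**Figure D3:**
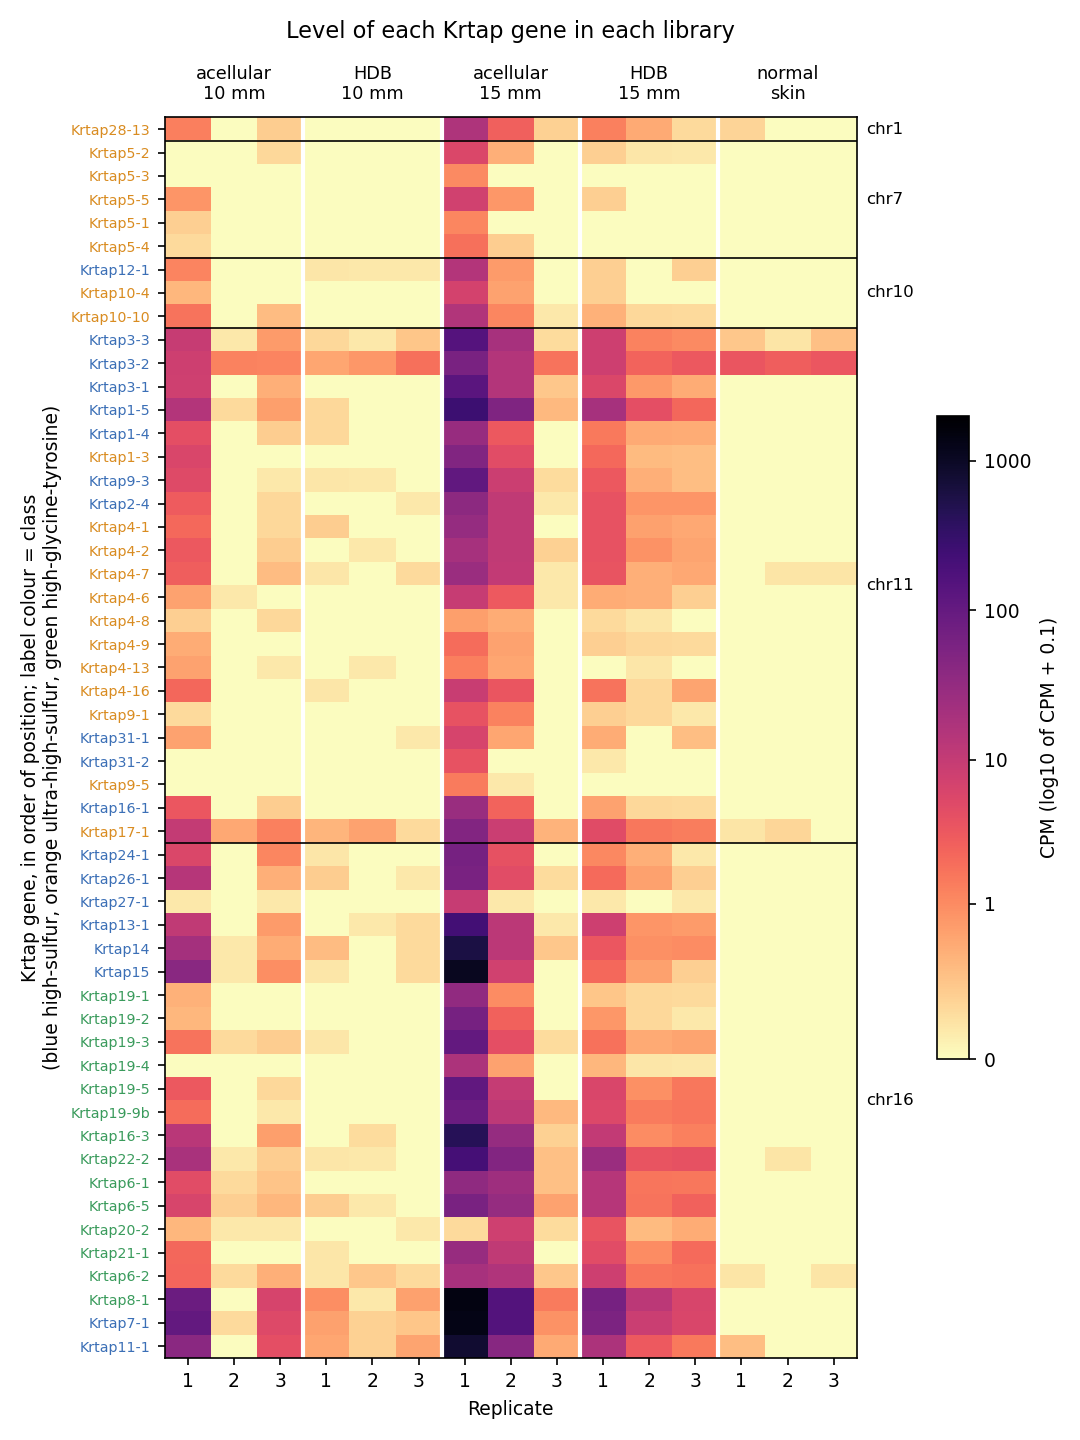
Rows are the 53 Krtap genes in order of position, with the chromosome at the right and label colour for class, columns are the 15 libraries, and colour is the level as log10 of CPM + 0.1. Dark columns mark acellular 15 mm replicates 1 and 2, HDB 15 mm replicate 1 and acellular 10 mm replicate 1, and Krtap3-2 is the row with colour in every library, 2.75 to 3.44 CPM in normal skin.

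Krtap3-2, a small high-sulfur protein gene of chromosome 11, was the one member with over 3 counts in every normal library. It held 3.44, 2.75 and 3.29 CPM there, which was 81.7% to 89.1% of the whole Krtap sum. In the wound groups it held 8.11, 1.24 and 1.17 CPM (acellular 10 mm), 0.533, 0.753 and 1.83 CPM (HDB 10 mm), 60.4, 14.9 and 1.70 CPM (acellular 15 mm) and 8.0, 2.42 and 3.28 CPM (HDB 15 mm). All 3 HDB 10 mm libraries lay below all 3 normal libraries. Krtap3-3, identical in coding sequence, held 0.211, 0.067 and 0.268 CPM in normal skin but 145 CPM in acellular 15 mm replicate 1, more than Krtap3-2 there. Their estimated counts had decimals in 14 libraries and summed to a whole number (within 0.02) in each of them, so reads were shared out between the pair and the split rests on bases outside the coding part. Besides these, Krtap11-1 had 4 counts in normal skin, and Krtap17-1, Krtap6-2, Krtap4-7, Krtap28-13 and Krtap22-2 had 1 to 3, while 45 members had none.

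The makeup of the Krtap RNA also differed between libraries. Glycine-tyrosine genes gave 49.6%, 46.1% and 50.9% of the summed CPM in the HDB 15 mm libraries. They gave 33.3% and 45.2% in acellular 15 mm replicates 1 and 2 and 40.6% in replicate 3, which rests on 160 counts. In acellular 10 mm replicates 1 and 3 their share was 29.97% and 30.51%. The HDB 15 mm shares were above the acellular 15 mm shares only with Krtap3-2 in the sum. Without it they were 50.84%, 48.12% and 54.71% against 33.57%, 46.07% and 50.78%, and the groups overlapped. Ultra-high-sulfur genes gave 3.26% to 10.0% in these 8 libraries, the lowest being acellular 15 mm replicate 1. Krtap15 alone made up 13.9% of the sum in acellular 15 mm replicate 1 and 8.94% in acellular 10 mm replicate 1, but 0.972% in acellular 15 mm replicate 2 and 0.365% to 1.06% in HDB 15 mm. Krtap8-1 kept a nearly even share, 18.1% to 21.8% in 5 of the 6 libraries with at least 500 Krtap counts and 13.1% in HDB 15 mm replicate 3.

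**Figure D4:**
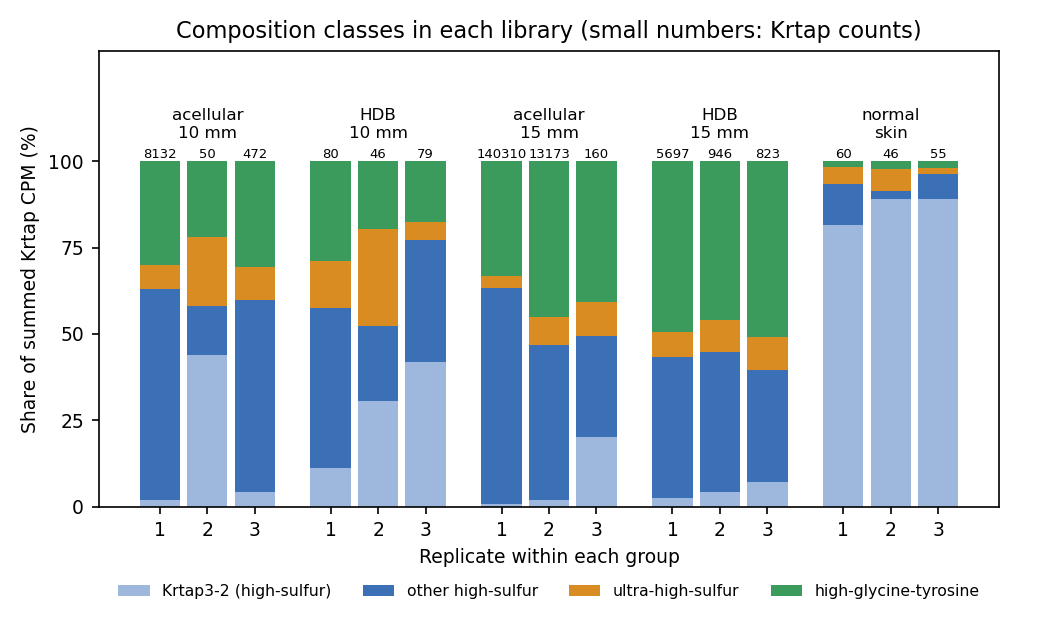
Stacked bars give the share (%) of the summed Krtap CPM held by Krtap3-2, the other high-sulfur genes, the ultra-high-sulfur genes and the glycine-tyrosine genes in each of the 15 libraries, with the number of Krtap counts above each bar. Normal skin is nearly all Krtap3-2 (81.7% to 89.1%), and the green glycine-tyrosine share is 46.1% to 50.9% in HDB 15 mm.

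The 2 libraries with the most Krtap RNA, acellular 15 mm replicates 1 and 2, allowed a comparison gene by gene. For the 44 members with at least 100 counts in the pair, the level in replicate 2 was a median of 0.102 of that in replicate 1, but the ratios ran from 0.00616 (Krtap27-1) to 66.9. Krtap15 stood at 0.00675 (95% counting interval 0.00563 to 0.00803), Krtap14 at 0.0205 and the 5 Krtap19 genes Krtap19-1 to Krtap19-5 at 0.0300 to 0.0922. Krtap6-5, Krtap6-1 and Krtap6-2 stood at 0.505, 0.704 and 0.822, and 5 Krtap4 genes at 0.331 to 0.532. Krtap20-2 went the other way. It had 2 counts in replicate 1 and 130 in replicate 2, a ratio of 66.9 (18.2 to 558). It had 63, 5 and 8 counts in HDB 15 mm, 6, 1 and 1 in acellular 10 mm, 1 in HDB 10 mm and none in normal skin. Among the hair shaft keratins, 14 of 15 stood at 0.0542 to 0.181 and Krt84 at 16.7 (14.3 to 19.7), the same direction as Krtap20-2. Krt84 was at 9.64, 161 and 2.65 CPM in acellular 15 mm and at 83.1, 15.6 and 17.3 CPM in HDB 15 mm. These intervals cover counting error in 2 libraries and say nothing about the group.

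**Figure D5:**
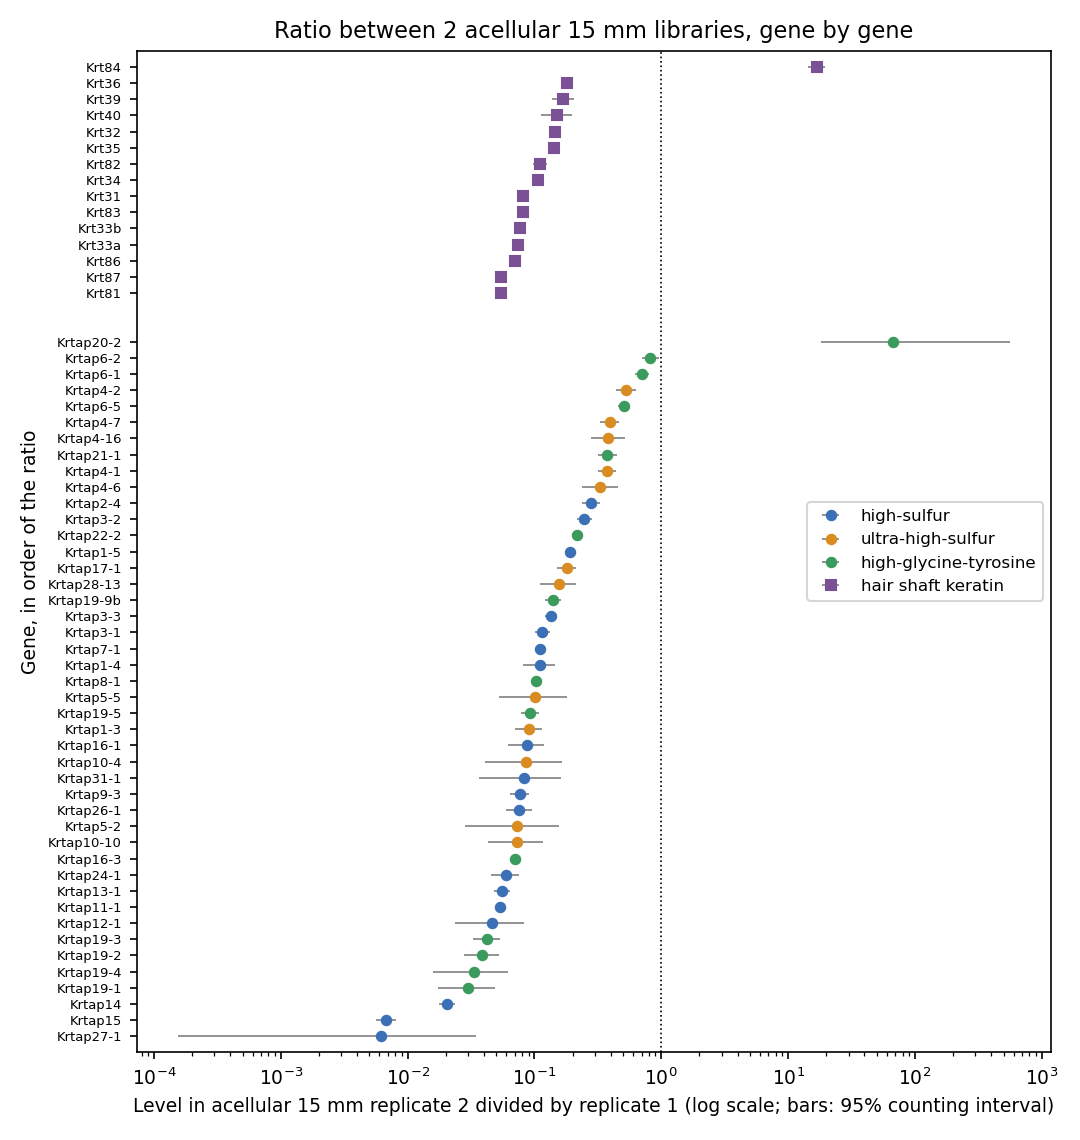
Points give, on a log axis, the level in acellular 15 mm replicate 2 divided by that in replicate 1 for each of the 44 Krtap genes with at least 100 counts, with 95% counting intervals, and for 15 hair shaft keratins. Most points lie near the Krtap median of 0.102, with Krtap20-2 (66.9) and Krt84 (16.7) above 1 and Krtap15 (0.00675) far below.

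The first comparison asked whether beads with MSCs changed Krtap levels in wounds of the same size. Of 53 members, 36 had enough counts to be tested in a single edgeR quasi-likelihood fit over all genes. All 36 had a lower fitted mean in HDB than in acellular wounds at both sizes, but the HDB and acellular libraries of a size overlapped for nearly every member. No member passed the threshold (adjusted p under 0.05) at 15 mm, where 2.93% of all 15369 genes tested did (0.579% higher and 2.35% lower), nor at 10 mm, nor with the sizes averaged, and in these last comparisons 0.0% of all genes did. The unadjusted p was under 0.05 for 17 members in the larger wounds (23.2% of all genes), for 10 in the smaller ones (3.53%) and for 35 with the sizes averaged (15.8%). With both acellular replicate 1 libraries left out, each of these counts was 0, against 17.7%, 3.1% and 7.85% of all genes. DESeq2 called 3 members lower at 15 mm (Krtap14, Krtap3-2 and Krtap19-3, against 14.1% of all genes), 1 at 10 mm (Krtap1-3, against 0.111%) and 13 over both sizes (against 2.76%). Krtap1-3 is named here only because that call singled it out, and it stood at 5.77, 0 and 0 CPM in acellular 10 mm with no count in HDB 10 mm, so that the 10 mm call rests on 1 library. The median fitted log2 difference of the 36 members was -4.12 at 15 mm (all genes 0.00) and -5.58 at 10 mm (all genes -0.01). With groups without counts set to 3 counts per library, the 10 mm median was -4.72 over 35 members, as 1 was under that level in both groups. Single libraries decided these values. Without acellular 15 mm replicate 1 the 15 mm median was -1.43 and 0 members had an unadjusted p under 0.05 (18.3% of all genes), and without acellular 10 mm replicate 1 the 10 mm median was -1.34 with 0 members (1.45%). Without acellular 15 mm replicate 3, edgeR called 14 of 43 members tested at 15 mm, against 14.9% of all genes.

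For the class leaders the differences were large and their errors as well. Krtap8-1 differed between HDB and acellular by -4.24 ± 2.12 (log2, SE) at 15 mm (edgeR adjusted p = 0.259) and by -5.03 ± 1.65 as the mean of both sizes (edgeR adjusted p = 0.261). Krtap7-1 differed by -4.42 ± 2.15 at 15 mm and Krtap17-1 by -2.87 ± 1.32 (edgeR adjusted p = 0.246 and 0.213). DESeq2 called all 3 leaders lower over both sizes, with adjusted p = 0.0480 for Krtap8-1, 0.0123 for Krtap7-1 and 0.0461 for Krtap17-1. Without acellular 15 mm replicate 1 these 15 mm differences shrank to -1.43 for Krtap8-1, -1.68 for Krtap7-1 and -0.79 for Krtap17-1. With both acellular replicate 1 libraries left out, the mean over both sizes was -1.98 for Krtap8-1. In exact two-sided permutation tests of mean log2 CPM, with labels exchanged within size over both sizes (400 arrangements, smallest possible p 0.005), Krtap8-1 gave p = 0.235, Krtap7-1 p = 0.19 and Krtap17-1 p = 0.16, each 0.529 after adjustment over 9 such tests. Within a size, 3 libraries against 3 cannot go below p = 0.1, and the exact p-values were 0.2 to 0.6. The smallest edgeR adjusted p of any member at 15 mm was 0.122, for Krtap19-3 (102, 4.32 and 0.106 CPM in acellular, 1.77, 0.485 and 0.565 CPM in HDB), whose acellular replicate 3 was the lowest library of the 6.

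Counting libraries without overlap gave a similar view. No member had all HDB 15 mm libraries above or below all acellular 15 mm libraries, while 7.54% and 9.91% of the 18929 genes did. At 10 mm, Krtap19-3, Krtap20-2 and Krtap6-1 had all HDB libraries below all acellular libraries, 3 of 53 against 5.61% of all genes, and no member had them all above (4.19% of all genes). These 3 stood at 1 count or less in every HDB 10 mm library, and Krtap20-2 also had 1 count in acellular replicates 2 and 3, so that its order rests on the scaling. The treatment effect did not pass a test of differing between sizes for any member (edgeR interaction, 0 of 36 at either adjusted or unadjusted p under 0.05, against 0.0% and 13.4% of all genes, smallest adjusted p = 0.594; DESeq2 called Krtap1-3, against 5.54%). Hair shaft keratins (15 tested) and inner root sheath genes (8 tested) also had no call between HDB and acellular wounds, with median log2 differences of -4.71 and -4.05 at 15 mm.

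The second comparison was between wound sizes under the same kind of beads. By the paper's methods, HDB wounds of 15 mm received more beads and more MSCs than those of 10 mm. Size and dose therefore cannot be told apart in HDB wounds. All 36 tested members had a higher fitted mean at 15 mm than at 10 mm in both treatments, and none passed edgeR's threshold, nor did any of all genes (0.0% in both). Unadjusted p was under 0.05 for 18 members in acellular wounds (17.5% of all genes) and 13 in HDB wounds (12.3%). DESeq2 called 3 members higher in acellular wounds (Krtap6-2, Krtap3-2 and Krtap19-3, against 6.6% of all genes) and 7 in HDB wounds (against 3.7%). In HDB wounds the libraries separated, with all 3 at 15 mm above all 3 at 10 mm for 39 of 53 members, against 9.78% of all genes. Only 27 members had over 3 counts in every HDB 15 mm library, so part of the 39 rests on 3 counts or fewer in a library. Krtap6-2, for example, had 140, 27 and 31 counts at 15 mm and 1, 4 and 2 at 10 mm, a difference of 4.79 ± 1.5 (log2, SE; edgeR adjusted p = 0.247), and it was among the 7 members that DESeq2 called (adjusted p = 0.0114). In acellular wounds no member separated in either direction (7.32% of all genes were higher and 6.98% lower). With acellular 15 mm replicate 3 left out, edgeR called 3 of 43 members tested there, against 3.38% of all genes. Without acellular 15 mm replicate 1, however, 31 of 37 members were higher and 6 lower at 15 mm, the median log2 difference was 1.46 (3.81 with all libraries), and 2 members had an unadjusted p under 0.05 (21.8% of all genes). Without acellular 10 mm replicate 1 the median was 7.79 and all 43 members tested had an unadjusted p under 0.05 (13% of all genes), and with both acellular replicate 1 libraries left out it was 5.17 with 21 of 33 members (17%). In HDB wounds the unadjusted count was 2 of 42 without HDB 15 mm replicate 1 (9.61% of all genes).

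The third comparison set each wound group against normal skin. The 4 comparisons share the same 3 normal libraries, so they are not independent of each other. In acellular 15 mm, 33 of 36 tested members were higher than in normal skin (edgeR adjusted p under 0.05), against 17.6% of all genes (30.2% in either direction), and Krtap16-1, Krtap5-5 and Krtap1-3 missed the threshold. As 45 members had no count in normal skin, most of the 36 had passed the filter through wound libraries, and with no filter edgeR called 37 of 53 (22.3% of all genes). DESeq2 called 34, against 40.2%. Krtap6-2 had the smallest adjusted p, at 348, 278 and 4 counts against 1, 0 and 1 (log2 difference 7.84 ± 1.77, edgeR adjusted p = 0.00924). As Krtap8-1 had no normal count, its acellular 15 mm mean was at least 2609-fold higher than the level of 3 counts per library, and that of Krtap7-1 at least 2456-fold. Without acellular 15 mm replicate 1 both bounds fell, to 370.2-fold and 369.8-fold. Krtap17-1, with 3 normal counts in all, was called as well (edgeR adjusted p = 0.0111). The median of the 36 members was 7.26 on the log2 scale with such bounds (all genes 0.06). Libraries nonetheless overlapped with normal skin for many members, and 23 of 53 had all 3 acellular 15 mm libraries above all normal ones, against 19.0% of all genes. The count of calls rested on single libraries, as edgeR called 12 of 37 members tested without acellular 15 mm replicate 1 (23% of all genes) and 4 of 43 without normal replicate 1, 2 or 3 (14.8% to 17.8% of all genes). When only these 2 groups were fitted, 4 members could be tested (Krtap8-1, Krtap3-2, Krtap6-5 and Krtap7-1) and none was called by edgeR, against 6.57% of all genes, though all 4 had an unadjusted p under 0.05 (smallest adjusted p = 0.0816). All 15 hair shaft keratins and all 8 inner root sheath genes were also called higher.

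In acellular 10 mm, 1 of 36 members was called higher by edgeR, against 9.77% of all genes (20.3% in either direction), and 11 had an unadjusted p under 0.05 (38.3% of all genes). It was Krtap17-1 (log2 difference 5.71 ± 1.87, edgeR adjusted p = 0.0489), whose call was lost without acellular replicate 1 (log2 difference 3.58) or 3 or any of normal replicates 1, 2 and 3. DESeq2 called 21 members, against 32.9%. All 3 libraries lay above normal skin for 10 of 53 members, against 24.2% of all genes. Replicate 1, at 464 CPM in sum, held most of the group's Krtap RNA.

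In HDB 15 mm wounds every library held more Krtap RNA than normal skin. All 3 HDB 15 mm libraries exceeded all 3 normal libraries for 39 of 53 members, against 20.2% of all genes. Only 27 members had over 3 counts in every HDB 15 mm library, so part of the 39 rests on 3 counts or fewer in a library. Krtap8-1 was at least 138-fold and Krtap7-1 at least 115-fold above the level of 3 counts per normal library. Without HDB 15 mm replicate 1 these bounds were 45.5-fold and 35.5-fold. Even so no member passed edgeR's threshold (2.67% of all genes were called higher), with 14 at an unadjusted p under 0.05 (26.9% of all genes) and a smallest adjusted p of 0.0590 for Krtap6-2. Without HDB 15 mm replicate 1 the unadjusted count was 2 of 42 (18.8% of all genes) and the smallest edgeR adjusted p was 0.175. DESeq2 called 18 members, against 18.6%, and edgeR called 1 of 43 without HDB 15 mm replicate 2 (8.61% of all genes). When only these 2 groups were fitted, edgeR called 15 of 18 members tested (22.9% of all genes), but nearly all of those had passed the filter through their HDB libraries alone. In the fit of all 5 groups, edgeR called 0 of 53 with no filter (3.31% of all genes), as it called 0 of 36 with the filter. The difference between 39 members here and 23 in acellular 15 mm was not tested.

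In HDB 10 mm the Krtap sum overlapped that of normal skin, but not when Krtap3-2 was left out. No member was called (edgeR, 0 of 36 at adjusted or unadjusted p under 0.05, against 12.3% and 31.6% of all genes; DESeq2 called 0, against 24.8%). Of the tested members, 27 had no count in at least 1 of the groups and a mean at or under the level of 3 counts per library in the other. Krtap12-1, Krtap7-1 and Krtap8-1 had all HDB libraries above normal skin, 3 of 53 against 21.6% of all genes. Krtap3-2, the member present in normal skin, was the one with all HDB libraries below it (1 of 53 against 20.0%), by -1.59 ± 1.09 on the log2 scale (edgeR adjusted p = 0.334). When only these 2 groups were fitted, Krtap3-2 was the sole member tested and was called lower (edgeR adjusted p = 0.0497), against 20.2% of all genes. Krtap3-2 also differed from normal skin by 3.02 ± 1.07 in acellular 15 mm (edgeR adjusted p = 0.0495), a call lost without acellular 15 mm replicate 1 (1.39, adjusted p = 0.297) or 2 or any of normal replicates 1, 2 and 3, and by 0.15 ± 1.02 in acellular 10 mm and 0.53 ± 1.02 in HDB 15 mm. The signs of these last differences turned to -1.39 without acellular 10 mm replicate 1 and to -0.15 without HDB 15 mm replicate 1.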

How the data were processed

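RNA from 15 dorsal skin samples was enriched for mRNA with oligo(dT) and sequenced. The authors deposited estimated counts (expected counts) per gene, made by aligning and counting reads, with Entrez identifiers and symbols, and the submitters' processing notes name HISAT2 2.0.4, Bowtie2 2.2.5, RSEM 1.2.12 and GRCm38.p6, with no roles. How reads of the human MSCs would be assigned is not given in the sources used here. Totals were 15840542 to 18404177 after rounding to whole numbers, and values carry counting error that depth limits.

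Groups came from the sample labels. Rounded counts were TMM-scaled, and genes passing filterByExpr (15369 of 18929) entered 1 edgeR quasi-likelihood fit with a mean for each group, and p-values were adjusted by Benjamini-Hochberg (0.05). Log2 CPM used a prior count of 2. Each SE printed with an edgeR difference was worked back from its test, as the difference divided by the square root of the F statistic. It therefore holds no information beyond that test. Alternatives were DESeq2 size factors and tests, no filter, only the groups compared, a replicate block, removal of a transcript length trend, each replicate left out and, chosen after seeing the data, both acellular replicate 1 libraries left out. The labels do not say whether replicate numbers pair samples. Same-numbered deviations from the group means correlated at 0.167 to 0.397 between acellular and HDB at 15 mm. For the other pairs of groups they correlated at -0.544 to 0.489, and pairing was not tested. The code was tested on simulated data.

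Members and lists were chosen with earlier results of these data known. Genes named were the leader of each Krtap subfamily by mean CPM, up to 3 with the smallest adjusted p against normal skin or between sizes, up to 10 called between HDB and acellular wounds, and the leader of each class per kb of RefSeq gene span. Classes had been planned from protein sequence and were computed instead from annotated GENCODE M21 codons. R 4.3.3, edgeR 4.0.16, limma 3.58.1, DESeq2 1.42.0, Python 3.11.15, scipy 1.17.1 and pandas 2.3.3 were used.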

Additional observations from a re-analysis of the deposited data

How the results depend on the processing

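Other scalings gave group means of the summed Krtap level of 2808 to 2892 CPM in acellular 15 mm (2910 as reported), but without replicate 1 the mean was 389 CPM there, 15.2 CPM in acellular 10 mm (165 as reported) and 51.9 CPM in HDB 15 mm (143 as reported). For HDB against acellular, DESeq2 called 1 member in 10 mm wounds (0.111% of all genes), 3 in 15 mm wounds (14.1%) and 13 with sizes averaged (2.76%). It called 1 for the interaction (5.54%), and 3 and 7 between sizes in acellular and HDB wounds (6.6% and 3.7%). Against normal skin it called 21 for acellular 10 mm (32.9%) and 18 for HDB 15 mm (18.6%). For acellular 10 mm against normal skin the edgeR count was 0 of 53 with no filter (14.4% of all genes called). It was 0 of 33 with both acellular replicate 1 libraries left out (19.8%). It was also 0 with only the groups compared (42% of all genes), but there Krtap3-2 was the sole member tested and Krtap17-1 was not. With only the groups compared, the counts were 0 of 4 tested for acellular 15 mm, 1 of 1 for HDB 10 mm (Krtap3-2, lower) and 15 of 18 for HDB 15 mm against normal skin (6.57%, 20.2% and 22.9% of all genes), where fewer members passed the filter, those of HDB 15 mm mostly through their HDB libraries. In the fit of all 5 groups the HDB 15 mm count was 0 of 53 with no filter (3.31% of all genes) and 0 of 36 with the filter (5.18%). Leaving out 1 replicate at a time gave 0 to 14 calls for HDB against acellular at 15 mm, 0 to 3 between sizes in acellular wounds, 0 to 1 for acellular 10 mm, 4 to 43 for acellular 15 mm and 0 to 1 for HDB 15 mm against normal skin. Each highest count was of 43 members tested, and the shares of all genes called beside them were 14.9%, 3.38%, 11.9%, 37.3% and 8.61%. Krtap3-2 ranged in acellular 10 mm against normal skin from -1.39 (without acellular 10 mm replicate 1) to 0.56 (without replicate 3) and turned to -1.39 with both acellular replicate 1 libraries left out, and in HDB 15 mm ranged from -0.15 (without replicate 1) to 0.83 (without replicate 2), and the cause was not tested. Between HDB 10 mm and normal skin, 27 of the 36 tested members had no count in at least 1 group and a mean at or under 3 counts per library in the other. Differences in these members were not detectable at this depth.

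With the replicate block, edgeR called 1 member in acellular 10 mm and 35 in acellular 15 mm against normal skin (16% and 25.3% of all genes). It called 0 in the other comparisons. The shares of all genes there were 7.72% and 1.54% for HDB 10 mm and HDB 15 mm against normal skin, 1.16% for HDB against acellular at 15 mm and 0% elsewhere. Krtap3-2 lost its call in acellular 15 mm under the block (edgeR adjusted p = 0.0801) and turned to -0.40 in acellular 10 mm. The median log2 difference of the 36 members for HDB against acellular at 15 mm was -3.19 under the block (-4.12 as reported). Whether the replicate numbers pair the samples was not tested.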
